A study of Mus musculus with 4 samples.

Results

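The secondary and tertiary neutrophil granule genes were analysed as a family of 9 genes, chosen by name among the 24706 genes of the deposited expression files: Ltf, Camp, Ngp, Lcn2, Chil3, Mmp8, Cd177 and Olfm4 of the secondary (specific) granules, and Mmp9 of the tertiary (gelatinase) granules. The RNA-seq data comprised 4 mouse libraries labelled as myeloid cells, 2 with the genotype wt and 2 with the genotype cko. The study describes the controls as PD-1f/f mice and the knockouts as PD-1f/f; LysM-Cre mice. In both, LoxP sites flank an exon of Pdcd1, the gene of the inhibitory receptor PD-1. The knockouts also carry Cre recombinase under control of the lysozyme 2 gene (Lyz2), which is active in granulocytes, monocytes and macrophages and not in a single myeloid cell type. The results of the study describe CD11b+ cells sorted from P3 fetal liver, while its methods describe RNA of P2 fetal livers from wild-type and PD-1 knockout mice. Neither these descriptions nor the labels settle which applies. Nothing in the sources used here says that libraries of a group came from separate animals, so the tests measure only the spread between these libraries. In cko this spread may be technical, while the wt libraries differed in Y-linked transcripts and so were not made from the same animal.

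Neutrophils fill their granules in sequence as they mature. Myeloperoxidase and the serine proteases are packed into primary granules at the promyelocyte stage, the members described here are made mainly at the myelocyte and metamyelocyte stages, and gelatinase follows in band cells. Transcripts of many of these genes then fall. Their level in a population can therefore reflect how many cells are at those stages as well as how strongly each cell transcribes them. The transcription factor C/EBP-epsilon is required for secondary granules, and mice without it lack the contents of these granules.

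The proximal promoters were examined because the members are made in a common window of differentiation. RefSeq promoter sequences (GRCm38.p6) matched 8 of the 9 genes, Mmp9 being the exception. In the 250 bases before the annotated start, on both strands, the letters TTNNGNAAT, a core of the C/EBP recognition sequence, occurred in 4 of the 8 promoters (Ltf, Ngp, Cd177 and Chil3) and in 10.2% of all 32817 mouse promoters searched. The 4 stretches that hold a match are shown with Camp, which held none. Each is read 5′ to 3′ on the strand of its gene, ends immediately before the gene as the files place it, and has the match in capitals. The Camp stretch has only 89 bases, because the rest of its 250 searched bases lies inside the gene as the files place it. No link between these letters and the levels in cko was tested. The coordinates on GRCm38.p6 are chr9:111019151-111019270 (+) for Ltf, chr9:110419627-110419746 (+) for Ngp, chr7:24760312-24760431 (-) for Cd177, chr3:106167565-106167684 (-) for Chil3 and chr9:109849618-109849706 (-) for Camp.
Ltf: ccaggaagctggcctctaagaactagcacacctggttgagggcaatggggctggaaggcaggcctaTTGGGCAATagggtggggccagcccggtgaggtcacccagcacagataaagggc
Ngp: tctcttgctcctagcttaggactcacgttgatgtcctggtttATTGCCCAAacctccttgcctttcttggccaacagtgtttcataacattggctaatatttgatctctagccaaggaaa
Cd177: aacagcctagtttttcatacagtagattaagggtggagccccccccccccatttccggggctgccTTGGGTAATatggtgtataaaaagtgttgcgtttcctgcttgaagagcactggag
Chil3: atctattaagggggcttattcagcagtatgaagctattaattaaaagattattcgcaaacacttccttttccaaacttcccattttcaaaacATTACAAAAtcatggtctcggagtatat
Camp: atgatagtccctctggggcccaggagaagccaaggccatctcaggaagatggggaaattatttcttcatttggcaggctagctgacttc

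Ltf and Ngp held the identical 9 letters TTGGGCAAT on opposite strands, 75 and 139 bases before their RefSeq starts. This run was singled out after the matches had been seen, and 43 of the 32817 promoters held it (0.131%). The match of Cd177, TTGGGTAAT, lay 55 bases before the start, and the match of Chil3 lay 28 bases before the start. The PU.1 letters GAGGAAGT were found before Mmp8 and Olfm4 (2.44% of promoters) and TATAAA before Cd177 alone (12.4%). No searched letters overlapped each other in these promoters. Lcn2 and Camp held none of the 3 sets of letters in this window, from which nothing follows about binding of the factors.

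The libraries held between 17691505 and 22212407 counted reads, recovered from the deposited FPKM values (fragments per kilobase of gene, scaled to the counted reads of the library). Pdcd1, the targeted gene, was at 28.5 and 34.7 FPKM in the wt libraries and at 17.1 and 21.4 FPKM in the cko libraries (log2 fold change -0.69, adjusted p = 0.218 by limma), so that its transcript was still present in cko. These values cover the whole gene and not the flanked exon alone. Lyz2, which carries the Cre, was at 31306 and 32147 FPKM in wt and at 10422 and 8127 FPKM in cko. Among all 10779 genes tested, 0 (0%) had an absolute log2 fold change of at least 1 with an adjusted p under 0.05 by limma, and 1768 had an unadjusted p under 0.05. The smallest two-sided p that an exact permutation of 2 against 2 libraries allows is 0.333, so single genes were not tested that way. The libraries differed in ways their labels do not give: wt replicate 2 alone held Y-linked transcripts (4 genes summing to 43.9 FPKM, against at most 0.0195 FPKM elsewhere).

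All 9 granule genes were among the 105 most abundant genes of every library, and neutrophil markers, led by S100a8 and S100a9, were abundant in all 4, which fits the label of myeloid cells. The 10 hepatocyte genes examined summed to 63.2 to 147 FPKM per library, beside 35443 FPKM or more for Ngp alone. Whether sorted cells or whole liver were sequenced was not tested. Camp, which encodes the cathelicidin precursor of an antimicrobial peptide, was lower in both cko libraries to about the same extent. Ngp, the other cathelicidin-family gene, differed by less than its spread. Lcn2, the siderophore-binding lipocalin, lay on the other side, above wt in both cko libraries. The 9 log2 fold changes ran from -1.11 (Camp) to 0.56 (Chil3, whose groups overlapped). No adjusted p by limma was under 0.183, so this range was not shown to differ from the spread between libraries.

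**Figure D1:**
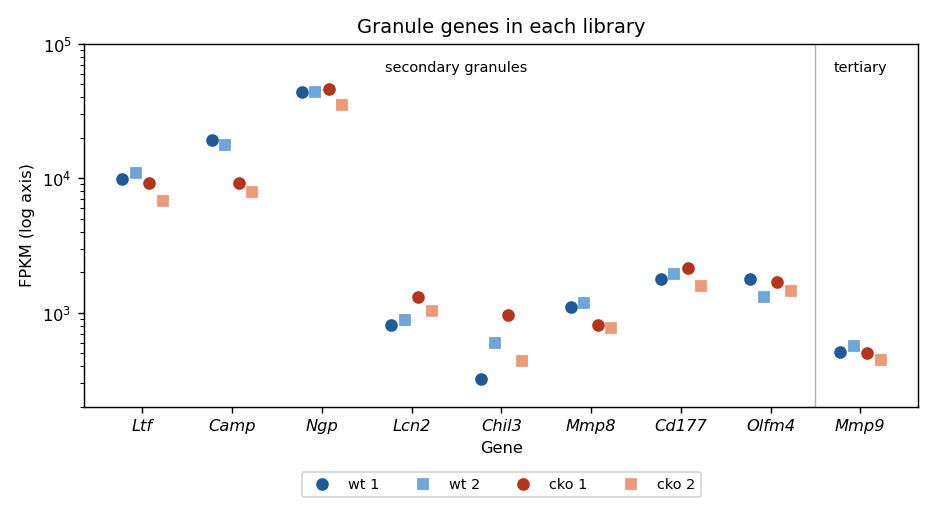
Level of each granule gene in the 4 libraries, in FPKM on a log axis, with 1 point per library (circles replicate 1, squares replicate 2, blue wt, red and orange cko). Ngp is highest at 35443 to 46573 FPKM, and the cko points of Camp lie clearly below its wt points.

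By level, the order of the means was Ngp, Camp, Ltf, Cd177, Olfm4, Lcn2, Mmp8, Chil3 and Mmp9, and FPKM values are per gene length, so that this order can be read across genes. Ngp (mean 42407 FPKM) did not overlap with Camp in any library, and Ltf (mean 9201 FPKM) did not overlap with Cd177 (mean 1853 FPKM). The remaining neighbours in the order overlapped in their ranges over the 4 libraries. Within libraries, Camp exceeded Ltf and Olfm4 exceeded Lcn2 in all 4, whereas Lcn2 exceeded Mmp8 only in the 2 cko libraries. Ngp ranked 1 or 2 among all genes of each library, Camp 5 or 6 and Ltf between 6 and 8. Together the 9 genes took 11.7% and 12.04% of the counted reads in wt and 11.3% and 8.64% in cko. The low value belonged to cko replicate 2, while cko replicate 1 was close to the wt libraries.

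Ltf encodes lactoferrin, the iron-binding protein of secondary granules (17 exons in the principal transcript, chr9:111019271-111042767 on the plus strand, GRCm38). It was at 9931 and 10933 FPKM in wt and at 9179 and 6761 FPKM in cko. Both cko values lay below both wt values, with cko replicate 1 near the wt range and cko replicate 2 well under it. Its log2 fold change was -0.40 ± 0.20 (SE), with a 95% interval from -0.90 to 0.09 and an adjusted p of 0.372 by limma. Without cko replicate 2 the log2 fold change was -0.18.

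Camp encodes the precursor of the mouse cathelicidin CRAMP, which is stored uncleaved in secondary granules and cut into an antimicrobial peptide after release. The gene has 4 exons (chr9:109847379-109849617, minus strand, GRCm38) and received between 106585 and 324978 reads per library. Its level was 19301 and 17673 FPKM in wt and 9260 and 7948 FPKM in cko. The groups were separated by a gap far wider than the distance between libraries of a group. The mean ± SD was 18487 ± 1151 FPKM in wt and 8604 ± 927 FPKM in cko (n = 2 each), a ratio of 0.465. The log2 fold change was -1.11 ± 0.17 (SE), with a 95% interval from -1.52 to -0.69, an unadjusted p of 0.000737 and an adjusted p of 0.183 by limma. Camp was thus 1 of 9 members past the threshold of the study's results (absolute log2 fold change above 1 and unadjusted p under 0.01). This threshold was passed by 2.29% of all tested genes, with 0.408% lower and 1.88% higher in cko, and Camp did not pass after adjustment. The call was lost when wt replicate 1 (log2 fold change -1.04, unadjusted p of 0.0116 by limma) or cko replicate 2 (-0.996, unadjusted p of 0.0254 by limma) was left out. It was also lost without the filter on low values, under quantile scaling (0, where Camp keeps its place in the ranks) and when each library was rescaled to one FPKM total (-0.89, beside 0.27 for the median of all genes). In bulk RNA, fewer cells at the stage that expresses a gene and less RNA per cell cannot be told apart, here and for every gene described.

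Ngp encodes neutrophilic granule protein, a secreted relative of the cathelicidins, and it and Camp were the only genes of the files annotated with the cathelicidin protein family. Ngp has 4 exons (chr9:110419747-110423012, plus strand, GRCm38) and lies between Camp and Ltf. It was at 43779 and 43834 FPKM in wt and at 46573 and 35443 FPKM in cko. The cko libraries lay on either side of the wt libraries, which were nearly equal. The log2 fold change was -0.11 ± 0.20 (SE), with a 95% interval from -0.60 to 0.39 (adjusted p = 0.811 by limma), and its sign turned under 4 of 16 alternative settings. Within each library the ratio of Camp to Ngp, which does not depend on library scaling, was 0.441 and 0.403 in wt and 0.199 and 0.224 in cko.

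Lcn2 encodes neutrophil gelatinase-associated lipocalin, which withholds iron from bacteria by binding their siderophores (6 exons, chr2:32384633-32388252, minus strand, GRCm38). It was at 813 and 883 FPKM in wt and at 1301 and 1035 FPKM in cko. Both cko libraries were above both wt libraries, and it was the only member with that order. For Lcn2 the log2 fold change was 0.45 ± 0.17 (SE), with a 95% interval from 0.04 to 0.87, an unadjusted p of 0.0374 and an adjusted p of 0.276 by limma. The value stayed positive in every alternative setting, between 0.29 and 0.67. The ratio of Lcn2 to Ltf, which both withhold iron, was 0.0819 and 0.0808 in wt and 0.142 and 0.153 in cko.

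Chil3 encodes Ym1, a chitinase-like lectin of mouse neutrophils and alternatively activated macrophages (11 exons, chr3:106147554-106167564, minus strand, GRCm38). It was at 322 and 599 FPKM in wt and at 962 and 437 FPKM in cko. The groups overlapped, and the 2 libraries within each group differed more than for any other member. The log2 fold change of 0.56 ± 0.45 (SE) had a 95% interval from -0.57 to 1.69 (adjusted p = 0.557 by limma), and it was 1.13 without cko replicate 2 and -0.01 without cko replicate 1. Its close paralog Chil4 received 0 reads in 3 libraries and 8 reads in cko replicate 2, although how reads shared by the 2 genes were assigned is not given in the sources used here.

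Mmp8 encodes neutrophil collagenase, a protease of secondary granules (10 exons, chr9:7558456-7568485, plus strand, GRCm38). It was at 1109 and 1180 FPKM in wt and at 805 and 764 FPKM in cko. The libraries within a group were close together and the groups did not overlap. For Mmp8 the log2 fold change was -0.54 ± 0.13 (SE), the smallest standard error among the members, with a 95% interval from -0.88 to -0.21, an unadjusted p of 0.00766 and an adjusted p of 0.214 by limma. When any 1 library was left out it was between -0.59 and -0.50.

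Mmp9 encodes gelatinase B, the defining protease of tertiary granules (13 exons, chr2:164940780-164955850, plus strand, GRCm38). It was at 510 and 561 FPKM in wt and at 499 and 444 FPKM in cko. The cko libraries were lower without overlap, but cko replicate 1 lay just below wt replicate 1. For Mmp9 the log2 fold change was -0.18 ± 0.14 (SE), with a 95% interval from -0.54 to 0.17 (adjusted p = 0.541 by limma). The ratio of collagenase to gelatinase B was 2.17 and 2.10 in wt and 1.61 and 1.72 in cko.

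Cd177 encodes a GPI-anchored glycoprotein of the secondary granule and plasma membrane that binds PECAM-1 (17 exons, chr7:24743983-24760311, minus strand, GRCm38). It was at 1772 and 1927 FPKM in wt and at 2141 and 1570 FPKM in cko. The cko libraries enclosed the wt libraries, and the log2 fold change was -0.01 ± 0.19 (SE), with a 95% interval from -0.49 to 0.47 (adjusted p = 0.982 by limma). Olfm4 encodes olfactomedin 4, a glycoprotein found in the secondary granules of a subset of neutrophils (5 exons, chr14:80000302-80021930, plus strand, in the files). It was at 1773 and 1300 FPKM in wt and at 1700 and 1461 FPKM in cko. Here the wt libraries enclosed the cko libraries, and the log2 fold change was 0.05 ± 0.20 (SE), with a 95% interval from -0.44 to 0.55 (adjusted p = 0.917 by limma). Its interval is shared with the non-coding gene Gm6999 on the same strand, so that its reads are less certain than those of the other members.

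**Figure D2:**
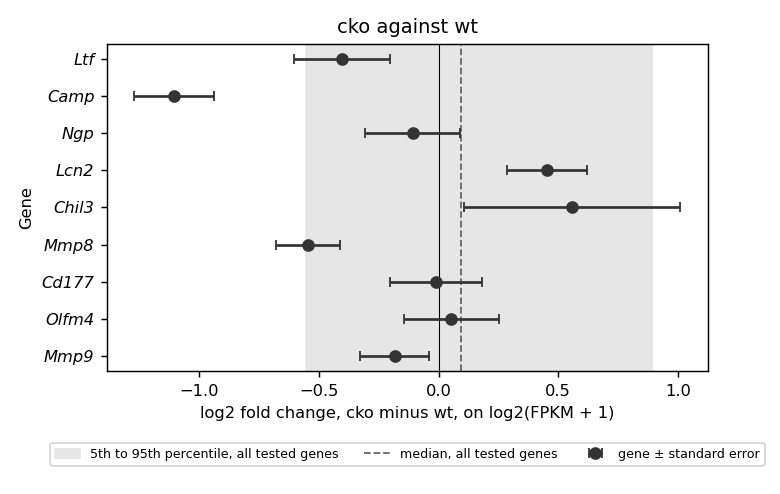
Log2 fold change of each granule gene, cko minus wt, on log2(FPKM + 1), with standard errors from limma as bars (n = 2 libraries per group). The grey band spans the 5th to 95th percentile of all 10779 tested genes (-0.56 to 0.89), and Camp is the only member whose point lies outside it.

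Counted over the family, 5 of 9 members had cko and wt libraries that did not overlap, as did 51.6% of all tested genes. Cko was below wt for 4 of them (Ltf, Camp, Mmp8 and Mmp9), an order found for 18% of all genes, and above wt for Lcn2, an order found for 33.6%. At an unadjusted p under 0.05 stood 3 members, Camp and Mmp8 lower and Lcn2 higher, against 16.4% of all genes (4.95% lower and 11.4% higher). The median log2 fold change of the 9 members was -0.11, beside 0.09 for all tested genes, and it turned to 0.11 beside 0.27 when each library was rescaled to one FPKM total.

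Ratios between members within a library are free of scaling between libraries. Of the 36 pairs of members, 26 had ratios that did not overlap between the groups, beside 68.5% of the pairs formed by the 122 genes averaging 300 FPKM or more, so that shifted ratios were common among abundant genes in general. Camp was lower in cko relative to each of the 8 other members. Lcn2 was higher in cko relative to 7 of the 8, all but Chil3, whose ratio to Lcn2 overlapped. These counts of single members were not set beside those of other genes. Of the members' summed FPKM, Camp gave 24.3% and 22.4% in wt and 12.8% and 14.2% in cko. Ngp gave 55.2% and 55.6% in wt and 64.3% and 63.4% in cko. Shares of a sum depend on each other, and the log2 fold change of Ngp itself was -0.11.

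**Figure D3:**
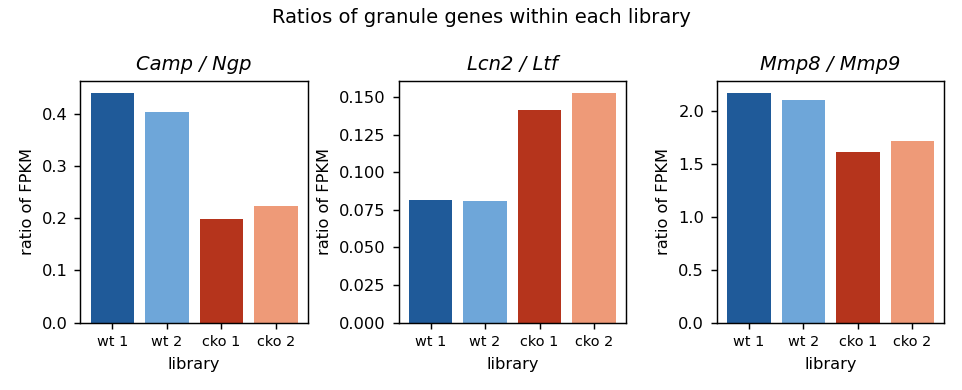
Ratios of FPKM between granule genes within each of the 4 libraries (bars, 1 per library, axes from 0). The ratio of Camp to Ngp is 0.403 or more in wt and 0.224 or less in cko, that of Lcn2 to Ltf is higher in both cko libraries, and that of Mmp8 to Mmp9 is lower in both.

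Camp, Ngp and Ltf lie in this order on chromosome 9 (109847379 to 111042767, GRCm38), Camp on the minus strand and the others on the plus strand, with Ngp 570130 bases beyond Camp and Ltf 596259 bases beyond Ngp. The 14 other genes tested in this interval had means of at most 27.3 FPKM. None of these 14 passed the study's threshold, 10 had positive and 4 negative log2 fold changes, and their median was 0.15.

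The granule genes of the preceding stage were set beside the family. All 8 primary granule genes had positive log2 fold changes (60.4% of all tested genes did), as they also did when libraries were rescaled to one FPKM total, while 7 of 8 did under median-of-ratios and under quantile scaling. The median was 0.38, beside 0.09 for all tested genes, and 0 passed the study's threshold by limma. At an unadjusted p under 0.05 by limma stood 3 of the 8, all higher, as did 11.4% of all tested genes. After rescaling to one FPKM total the median was 0.60, beside 0.27 for all tested genes. Then 1 primary granule gene (Prtn3) passed, as did 354 of all 10779 tested genes in that direction. Elane (neutrophil elastase) was at 617 and 646 FPKM in wt and at 945 and 749 FPKM in cko. Prtn3 (proteinase 3) was at 267 and 250 FPKM in wt and at 538 and 450 FPKM in cko, a log2 fold change of 0.93 (adjusted p = 0.183 by limma). In 6 of the 8 the cko libraries lay above the wt libraries without overlap, beside 33.6% of all tested genes. Among the 9 secondary and tertiary members this order held for Lcn2 alone.

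The 11 other secondary and tertiary granule genes were split, with 6 positive and 5 negative values and a median of 0.15. Lrg1, a secreted leucine-rich glycoprotein, was the only one past the study's threshold, at 797 and 831 FPKM in wt and 1917 and 1601 FPKM in cko (log2 fold change 1.11, adjusted p = 0.183 by limma). It did not pass under median-of-ratios scaling. Hp, which encodes haptoglobin, was at 1064 and 1048 FPKM in wt and 1668 and 1445 FPKM in cko (log2 fold change 0.56, adjusted p = 0.214 by limma). Of the 11 genes, 4 had both cko libraries above wt (33.6% of all tested genes did), 2 had both below (18% did) and 5 overlapped.

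**Figure D4:**
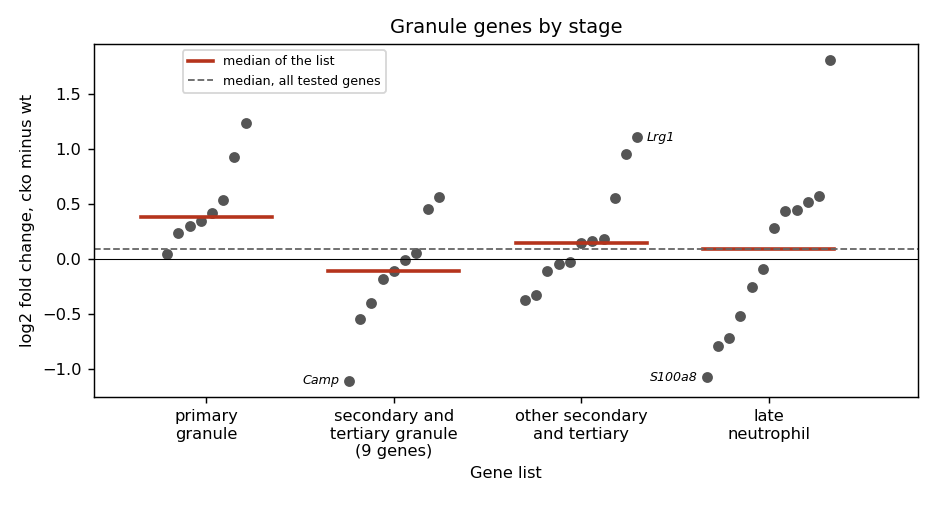
Log2 fold change, cko minus wt, of each tested gene (points) in the lists of primary granule genes (8), the 9 secondary and tertiary granule genes, other secondary and tertiary granule genes (11) and late neutrophil genes (12), with list medians as red bars. Named points passed an absolute log2 fold change above 1 and an unadjusted p under 0.01. All primary granule points lie above 0 on this scale, while those of the other lists lie on both sides.

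Of 7 regulators of granule genes, 5 were tested and 0 passed the study's threshold by limma. At an unadjusted p under 0.05 by limma stood 1 of the 5 (Spi1), as did 16.4% of all tested genes. Cebpe, the gene of C/EBP-epsilon, was at 81.5 and 101 FPKM in wt and at 89.7 and 40.9 FPKM in cko (log2 fold change -0.58, adjusted p = 0.466 by limma). The low library was cko replicate 2, in which Ltf, Camp, Ngp, Mmp8, Cd177 and Mmp9 were also at their lowest. Lcn2 and Chil3 were lowest in wt replicate 1 and Olfm4 in wt replicate 2. In cko replicate 1 Cebpe lay within its wt range, and a link of Cebpe to the members was not tested. Spi1, the gene of PU.1, was at 77.3 and 126 FPKM in wt and at 264 and 145 FPKM in cko (log2 fold change 0.98, adjusted p = 0.275 by limma). Among 7 partners of the granule proteins, 4 were tested, 0 passed the study's threshold and 0 had an unadjusted p under 0.05 by limma. Fpr2, the formyl peptide receptor that cathelicidin peptides engage, was at 325 and 269 FPKM in wt and 279 and 375 FPKM in cko. Timp2, an inhibitor of metalloproteinases, was at 5.10 to 6.93 FPKM. Timp1, an inhibitor of Mmp9, was listed at 0 in both wt libraries and received at most 4 reads in cko, and Pecam1, the partner of Cd177, was at 2.68 to 3.77 FPKM.

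The 12 late neutrophil genes were divided, with 6 positive and 6 negative values and a median of 0.09. S100a8, a calprotectin subunit of the neutrophil cytosol, passed the study's threshold at 32243 and 21503 FPKM in wt and 13010 and 12062 FPKM in cko (log2 fold change -1.07, adjusted p = 0.210 by limma). Its partner S100a9 was at 52186 and 39000 FPKM in wt and 28604 and 26142 FPKM in cko. S100a8 did not pass when libraries were rescaled to one FPKM total (-0.86), and its sign turned under quantile scaling (0.19). That scaling gives equal ranks equal values, and S100a8 ranked 3 and 4 in wt and 3 and 3 in cko. The turned sign therefore follows these ranks and not the size of the change in level. At an unadjusted p under 0.05 by limma stood 4 higher and 4 lower genes of this list, beside 11.4% and 4.95% of all tested genes. Among the higher was Il1r2, the decoy receptor of interleukin-1, named after its values were seen, at 42.2 and 34.1 FPKM in wt and 80.1 and 228 FPKM in cko (log2 fold change 1.81, adjusted p = 0.214 by limma). Among the lower was Ly6g, also named after its values were seen. Ly6g was at 245 and 351 FPKM in wt and at 200 and 143 FPKM in cko. Its log2 fold change was -0.79 (adjusted p = 0.245 by limma).

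By profile over the 4 libraries, the 5 genes nearest to the median of the family were Kctd20, Fbxo42, Asf1b, Gsn and Pex19, at Euclidean distances of 0.0599 to 0.0757 on the centred log2 scale among 5298 candidates. The median profile itself was 0.05 and 0.16 above the mean in wt replicates 1 and 2, 0.14 above it in cko replicate 1 and 0.25 below it in cko replicate 2. In this profile cko replicate 2 stood apart, and cko replicate 1 lay between the wt libraries. Kctd20, the nearest, was at 113, 125, 120 and 92.9 FPKM in wt replicates 1 and 2 and cko replicates 1 and 2. With 4 libraries, many genes can be this close.

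Markers of other cells varied between the libraries too. Of the 9 tested erythroid genes, 8 were below wt in both cko libraries, an order found for 18% of all tested genes. The erythroid list summed to 2334 to 3714 FPKM in wt and 1416 to 1515 FPKM in cko. Its median log2 fold change was -0.86. Hbb-bs and Epb42 passed the study's threshold, which 0.408% of all tested genes passed as lower in cko. Of 8 tested hepatocyte genes 7 had negative values, whereas 60.4% of all tested genes had positive ones. The hepatocyte list summed to 89.9 to 147 FPKM in wt and 63.2 to 75.7 FPKM in cko, and Apoa1 passed. Hba-a1, the most abundant of the erythroid list, was at 1366 to 1961 FPKM in wt and 826 to 840 FPKM in cko, and Ahsg of the hepatocyte list at 24.6 to 42.0 FPKM and 16.7 to 19.2 FPKM. The 2 lists held between 0.358% and 0.773% of the summed FPKM of a library. At one FPKM total per library the log2 fold change of Camp was -0.894 with the 2 lists removed and -0.890 with no gene removed. Any other part of these cells in the Camp difference was not tested. The 8 monocyte genes (7 with positive values) summed to 500 to 525 FPKM in wt and 516 to 652 FPKM in cko, and the 10 macrophage genes (6 with positive values) to 266 to 392 FPKM and 269 to 452 FPKM. In both lists the highest sum was that of cko replicate 2. The 2 most abundant were Ly6c2 and Csf1r among the monocyte genes and C1qa and C1qb among the macrophage genes. Eosinophil, basophil and mast cell genes summed to 149 to 319 FPKM in wt and 125 to 147 FPKM in cko, B and T cell genes to 49.7 to 63.8 FPKM and 32.2 to 41.7 FPKM, and megakaryocyte genes to 10.5 to 25.3 FPKM and 10.3 to 17.8 FPKM, with Prg2 and Prss34, Cd79b and Cd79a, and Pf4 and Itga2b as the most abundant of each. The T cell genes Cd3e and Trac were listed at 0 in both wt libraries and Cd4 in both cko libraries.

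**Figure D5:**
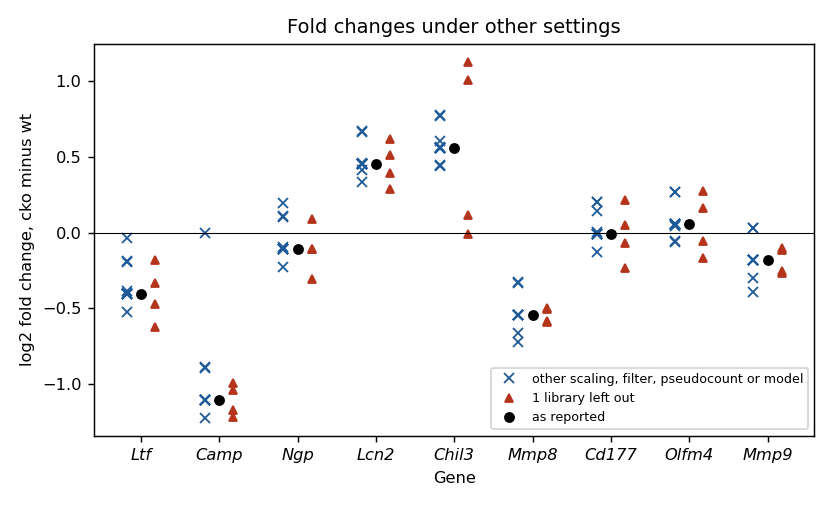
Log2 fold change of each granule gene, cko minus wt, as reported (black), under other scalings, filters, pseudocounts or models (blue crosses) and with 1 library left out (red triangles). Ltf, Lcn2 and Mmp8 keep their sign throughout, the Camp value of 0 comes from quantile scaling, and Chil3 spreads from -0.01 to 1.13 when single libraries are left out.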

How the data were processed

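The authors sequenced total RNA of 4 mouse libraries (2 wt, 2 cko) on an Illumina HiSeq instrument and deposited FPKM values per gene, 1 file per library. The submitters' processing notes name Bowtie2 2.2.3, TopHat2 2.0.12 and HTSeq 0.6.0, and the build mm9, but 92.61% of the positions in the files were identical to GENCODE M21 (GRCm38), so that coordinates are given on GRCm38. The deposited FPKM values had not been scaled between libraries, so that a few abundant genes can move all others. Library totals were chosen as those at which the values came out as whole reads. At these totals 91.29% of genes had whole reads (within 0.02 reads) at their annotated length. The share was 96.34% once genes that did not could take a length fitted to give whole reads, so this rise was built in. Among the members only Olfm4 had a fitted length, and Lrg1 had one too. The reads per gene follow from these totals and lengths. At these depths 1 read in a gene of 1 kb is worth 0.0450 to 0.0565 FPKM.

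Samples were grouped by the genotype label. Genes with a mean of 1 FPKM or more were tested on log2(FPKM + 1) with limma 3.58.1 (lmFit and eBayes with a trend) in R 4.3.3, without covariates, and p-values were adjusted by Benjamini-Hochberg over all of them. The thresholds of the study's methods (absolute log2 fold change of at least 1, adjusted p under 0.05) and results (above 1, unadjusted p under 0.01) were both counted, and all 9 members passed the filter. The members and all gene lists were chosen with earlier results of these data known. All members are named. Genes of other lists are named if past the results threshold, if among the 2 of the list with the highest mean, or if a defining gene was at 0, together with Pdcd1, Lyz2 and the 5 genes nearest in profile. Lcn2 to Ltf, Camp to Ngp and Mmp8 to Mmp9 ratios, Pecam1, Timp1, Il1r2, Ly6g, Chil4, Gm6999 and the Y-linked genes were chosen after their values were seen. On simulated reads for 10571 genes, 192 of them changed by a log2 fold change of 2 with a dispersion of 0.04, the fit found 97.4% at the methods threshold and called 24 unchanged genes. The largest change of a member was smaller (-1.11, Camp), so this share does not carry over to the members. Each choice was also varied alone, except that voom changed the unit, the filter and the model together: the filter (none, or a mean of 5 FPKM or more), the pseudocount (0.1 and 0.01), the scaling (quantile, median-of-ratios, or a common total once erythroid and hepatocyte genes had been taken out), the variance model (no trend), a block for the replicate number, recovered reads with voom (mean of 10 or more), and the libraries (each left out in turn). The log2 ratio of mean FPKM, which has no test, and one FPKM total with no gene removed were added after seeing the data. Promoter sequences were read from RefSeq (GRCm38.p6). Protein sequences were not used here. Figures were drawn with matplotlib 3.10.9 in Python 3.11.15.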

Additional observations from a re-analysis of the deposited data

How the results depend on the processing

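The count of granule genes past the study's results threshold (1, Camp) was 0 without a filter, under quantile scaling and with one FPKM total per library (with erythroid and hepatocyte genes removed or, as added after seeing the data, with no gene removed), and 0 to 1 when single libraries were left out (0 without wt replicate 1 and without cko replicate 2, and 1 without wt replicate 2 and without cko replicate 1). Quantile scaling gave Camp a log2 fold change of 0, since Camp ranked 6 and 5 in wt and 5 and 6 in cko and this scaling gives equal ranks equal values. With no filter its unadjusted p was 0.177 at the same fold change, and the adjusted p by limma was between 0.0728 and 1 over the 15 alternatives with a test. Over all genes, the 247 at that threshold became 126 with a mean of 5 FPKM or more, 372 with one FPKM total and no gene removed, and 131 to 462 with single libraries left out (147 without wt replicate 1, 131 without cko replicate 2, 462 without cko replicate 1). The 0 genes at the methods threshold became 2 in the voom setting (Lyz2 and Gm28875, named after their values were seen), which also used reads and another filter (13781 genes tested), and 1768 genes had an unadjusted p under 0.05. Of the 135 values of single members under alternatives with a test, 113 kept their direction and their call, 16 without a call had the other sign, and 6, those of Camp, lost the call. The log2 ratio of means, which has no test, kept the sign of 8 members and turned that of Cd177. The median over all genes was 0.09, and became -0.01 under median-of-ratios scaling and 0.27 with one FPKM total and no gene removed (0.26 with erythroid and hepatocyte genes removed too, so that the shift came with the rescaling). The median over members was then -0.23 and 0.11 (0.10), and it was 0.09 without cko replicate 2. The split of the all-gene calls was 203 higher and 44 lower, and became 142 and 71 under median-of-ratios scaling, 150 and 79 under quantile scaling, and 354 and 18 with one FPKM total (348 and 18 with those genes removed). The causes of these changes were not tested, apart from those given.

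Replicate numbers are shared by the groups but nothing says that they pair the samples, and the replicate differences of wt and cko correlated over genes at r = -0.16. With the replicate number as a block, 258 of all genes and 1 granule gene passed the results threshold, with no call of a granule gene changed. With 2 libraries per group, no member's difference could be separated from the spread after adjustment over all genes. This includes Camp (adjusted p = 0.183 by limma) as well as Ltf, Lcn2 and Mmp8.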
